A study of Mus musculus with 6 samples.

Results

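The genes described are 10 enzymes and carriers of fatty acid oxidation in sorted splenic T cells, out of 19938 genes measured on whole-transcript arrays. They were chosen by name: Cpt1a, Cpt2, Slc25a20, Acadm, Acadl, Acadvl, Hadha, Hadhb, Acaa2 and Lipa, each read from the probe set that names only that gene and has the highest mean over all 6 arrays. All 10 were found. The samples came from 6 B6D2F1/J mice, 1 array per mouse. Of these, 3 received rapamycin, an inhibitor of the kinase mTOR, at 1.5 mg/kg by intraperitoneal injection every other day until day 10, and 3 received phosphate-buffered saline (PBS) by the same schedule. All 6 had been lethally irradiated and given B6 bone marrow depleted of T cells, a parent-into-F1 transplant, and their CD3-positive spleen cells were sorted by flow cytometry on day 10. B6 spleen cells were added to the graft in some recipients of the protocol and not in others; which mice received them is not stated, so the origin of the sorted T cells is not known here.

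Beta-oxidation breaks fatty acids down to acetyl-CoA inside mitochondria. Long-chain acyl groups enter as carnitine esters: CPT1A makes the ester at the outer membrane, which is the rate-limiting step, the translocase SLC25A20 carries it across the inner membrane, and CPT2 turns it back into acyl-CoA. Acyl-CoA dehydrogenases, the trifunctional protein and a thiolase then shorten the chain in repeated rounds. Resting and memory T cells are known to use this pathway more than effector cells do, and mTOR signalling is known to favour glycolysis and lipid synthesis.

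Rapamycin and PBS mice did not differ detectably in any of the 10 transcripts. Of the 10 members 0 passed at an adjusted p under 0.05 (limma's moderated test, Benjamini-Hochberg adjustment over all genes, adjusted p = 0.99985 for each member), where 0.00502% of all genes passed. At an unadjusted p under 0.05 it was again 0 of 10, against 4.67% of all genes. Of the members 7 had a difference above 0, against 44.7% of all genes, and the median difference was 0.02 log2, beside a median of -0.01 over all genes. Values are log2 expression, differences are rapamycin minus PBS, and the number of arrays limits the precision. The 95% intervals of the 10 members together ran from 0.723-fold (Lipa) to 1.33-fold (Cpt1a), rapamycin over PBS.

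**Figure D1:**
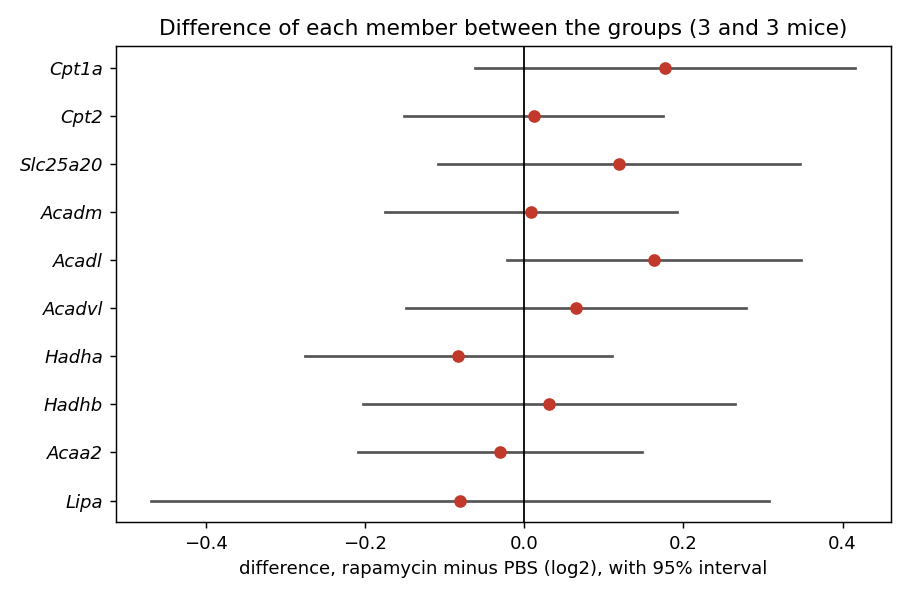
Difference of each of the 10 members between 3 rapamycin and 3 PBS mice on the x axis (log2, rapamycin minus PBS), in pathway order from top to bottom; points are the fitted differences and lines their 95% intervals. Every interval includes 0, and the widest belongs to Lipa.

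Upstream sequences are shown for the acyl-CoA dehydrogenases and for Hadhb. Acadl alone of the members separated the groups, 1 of 10, where 9.42% of all genes did. This separation was lost with each array centred on its median. Its relatives Acadm and Acadvl did not separate the groups. Hadhb and Hadha are read in opposite directions from one stretch of DNA. Each sequence holds the 250 bases before the transcript start from RefSeq (GRCm38.p6), in the direction of the named gene. Capitals mark the GC box (GGGCGG) and the nuclear receptor half-site (AGGTCA), each searched on both strands. The windows lie at chr1:66863310-66863559, minus strand for Acadl, chr3:153944644-153944893, minus strand for Acadm, chr11:70015429-70015678, minus strand for Acadvl and chr5:30155003-30155252, plus strand for Hadhb.
Acadl: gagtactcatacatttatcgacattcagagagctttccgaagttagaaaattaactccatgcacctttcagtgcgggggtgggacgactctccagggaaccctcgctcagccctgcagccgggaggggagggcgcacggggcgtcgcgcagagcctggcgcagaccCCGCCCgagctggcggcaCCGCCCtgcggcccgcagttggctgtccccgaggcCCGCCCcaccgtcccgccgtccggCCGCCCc
Acadm: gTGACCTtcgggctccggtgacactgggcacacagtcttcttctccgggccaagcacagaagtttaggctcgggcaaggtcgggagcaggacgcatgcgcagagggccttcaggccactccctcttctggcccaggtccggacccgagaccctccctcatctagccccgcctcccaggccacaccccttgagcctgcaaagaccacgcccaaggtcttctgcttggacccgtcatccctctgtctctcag
Acadvl: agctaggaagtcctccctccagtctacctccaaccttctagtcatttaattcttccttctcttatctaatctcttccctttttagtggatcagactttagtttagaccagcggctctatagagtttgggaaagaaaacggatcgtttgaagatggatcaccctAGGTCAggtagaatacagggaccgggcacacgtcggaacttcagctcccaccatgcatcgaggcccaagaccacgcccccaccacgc
Hadhb: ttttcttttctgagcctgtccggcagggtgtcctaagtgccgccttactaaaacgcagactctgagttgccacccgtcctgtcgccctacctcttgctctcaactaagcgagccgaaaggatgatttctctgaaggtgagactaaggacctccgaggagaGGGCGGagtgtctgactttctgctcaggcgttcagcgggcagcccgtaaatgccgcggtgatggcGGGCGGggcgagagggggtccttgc

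The Acadl window held 4 GC boxes and 0 half-sites, whereas those of Acadm and Acadvl held 0 GC boxes and 1 half-site each. Of the other members, whose groups overlapped, Slc25a20 held 3 GC boxes, Cpt2 and Hadhb 2 each and Hadha 1, all with 0 half-sites. Cpt1a held 2 GC boxes and 1 half-site, and Lipa 0 of either. The first transcribed bases of Hadha and Hadhb lay 272 bases apart on chromosome 5, and the window of Hadhb shared 228 bases with that of Hadha on the other strand. Upstream windows were found for 9 of the 10 members. Of these 9, 6 held a GC box, against 32.7% of all 32851 windows, 3 held a half-site, against 14.0%, and 0 held the E-box core CACGTG, against 6.02%. The only GC box of the Hadha window lies in the bases shared with Hadhb, so the same site was counted in both windows. These are matches of letters, given as a description, and a relation to the differences between the groups was not tested.

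The carnitine shuttle came first in the pathway, and its members lay level or slightly higher with rapamycin. Cpt1a measured 9.74, 9.59 and 9.96 in the rapamycin mice, against 9.65, 9.54 and 9.57 in the PBS mice. Only rapamycin replicates 1 and 3 lay above every PBS mouse, so the groups overlapped. The difference was 0.18 (SE 0.10, 95% interval -0.06 to 0.42), a 1.13-fold ratio with an unadjusted p of 0.127 in limma's test, and 11.8% of all genes had a p at or below it. It became 0.27 (unadjusted p = 0.0334) without rapamycin replicate 2 and 0.08 without rapamycin replicate 3.

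Slc25a20, the carnitine-acylcarnitine translocase, measured 8.716, 9.002 and 9.040 with rapamycin and 8.774, 8.786 and 8.840 with PBS. Rapamycin replicate 1 was the lowest of all 6 mice and the other two the highest. The difference was 0.12 (SE 0.10, 95% interval -0.11 to 0.35), and it became 0.22 (unadjusted p = 0.0241) without rapamycin replicate 1 and 0.06 without rapamycin replicate 3. Cpt2, the inner membrane transferase, measured 7.65, 7.66 and 7.64 with rapamycin and 7.60, 7.63 and 7.68 with PBS. It had the smallest spread of the members, an SD of 0.03 over 6 arrays, and a difference of 0.01 (95% interval -0.15 to 0.18).

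The acyl-CoA dehydrogenases carry out the first step of each round and differ in the chain length they prefer. Acadl, the long-chain enzyme, measured 10.00, 10.19 and 10.10 in the rapamycin mice and 9.94, 9.88 and 9.98 in the PBS mice. Every rapamycin mouse lay above every PBS mouse, although the lowest rapamycin mouse and the highest PBS mouse were 0.02 apart. Acadl was the 1 member of 10 whose groups did not overlap, where 9.42% of all genes separated in either direction and 3.14% were higher with rapamycin. The difference was 0.16 (SE 0.08, 95% interval -0.02 to 0.35), a 1.12-fold ratio with an unadjusted p of 0.0771 in limma's test, and 7.08% of all genes had a p at or below it. With each array centred on its median the groups of Acadl overlapped.

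Acadvl, the very-long-chain enzyme, measured 8.27, 8.49 and 8.54 with rapamycin and 8.43, 8.30 and 8.38 with PBS. Its rapamycin mice held both the lowest and the highest value, and the difference was 0.06 (SE 0.09). Acadm, the medium-chain enzyme, measured 8.34, 8.38 and 8.50 with rapamycin and 8.45, 8.42 and 8.32 with PBS. The groups of Acadm covered nearly the same range, with a difference of 0.01 (SE 0.08, 95% interval -0.17 to 0.19).

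**Figure D2:**
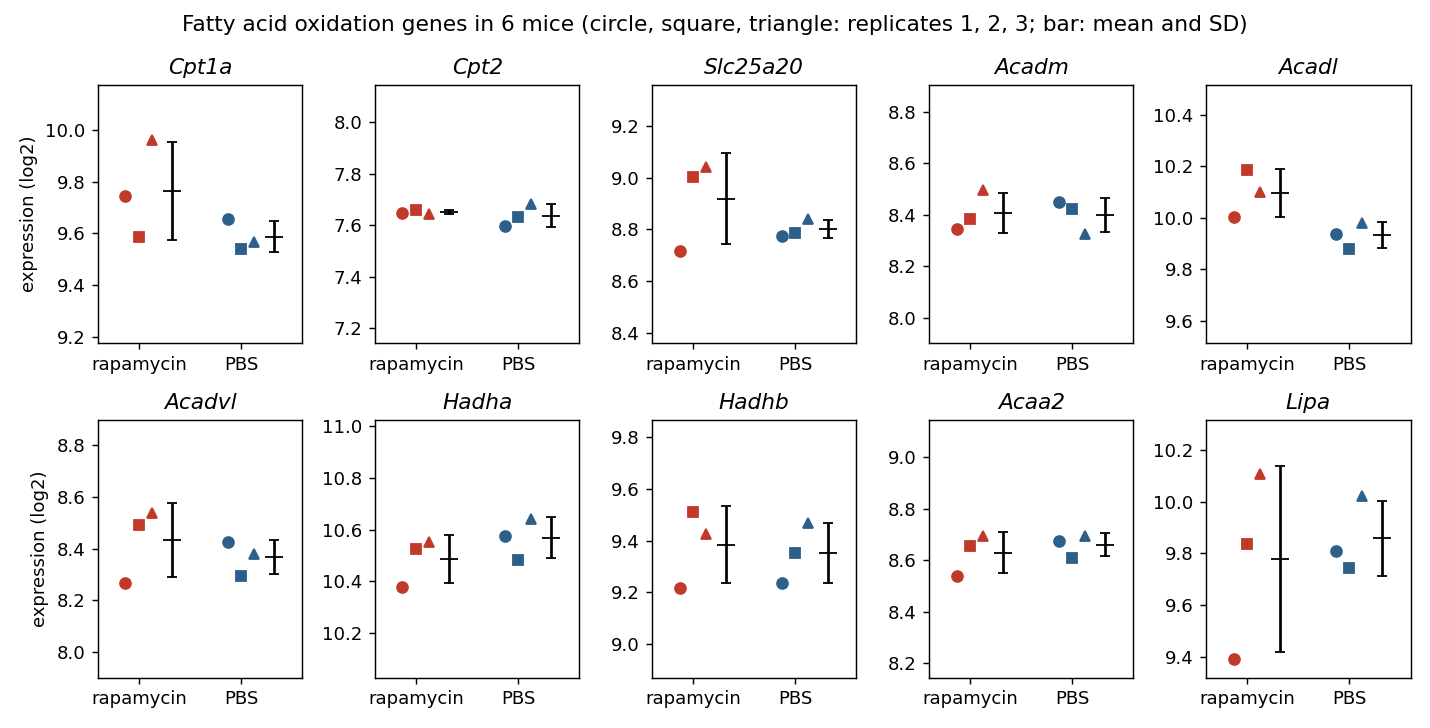
Expression of each member (y axis, log2, each panel spanning the same range of values) in rapamycin mice on the left and PBS mice on the right; markers are single mice and bars the mean ± SD of 3 mice. Acadl is the panel without overlap, Cpt2 the tightest and Lipa the widest, with rapamycin replicate 1 at 9.39 and replicate 3 at 10.11.

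The later steps of the round lay level between the groups. Hadha, the alpha subunit of the trifunctional protein, which holds its hydratase and dehydrogenase activities, measured 10.38, 10.52 and 10.55 with rapamycin and 10.58, 10.48 and 10.64 with PBS. The groups overlapped, and the difference was -0.08 (SE 0.08). Hadhb, the beta subunit, which holds the thiolase activity, measured 9.22, 9.51 and 9.43 with rapamycin and 9.24, 9.35 and 9.47 with PBS, a difference of 0.03 (SE 0.10). The 2 subunit genes share the upstream stretch shown above. Both were at their lowest in rapamycin replicate 1, as were Slc25a20, Acadvl, Acaa2 and Lipa. Among the members, the profile nearest to that of Hadha was that of Acaa2, and the profile nearest to that of Hadhb was that of Slc25a20. Hadha and Hadhb also lay on the same side of their 6-mouse means in rapamycin replicate 3 and in PBS replicates 2 and 3. They lay on opposite sides in rapamycin replicate 2, at -0.002 in Hadha and 0.14 in Hadhb, and in PBS replicate 1, at 0.05 in Hadha and -0.13 in Hadhb.

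The Hadhb probe set chosen by its level, 10474379, sits in the order of probe set numbers between those of Kcna4 and Kif18a on chromosome 2, while Hadhb lies on chromosome 5. For the other 9 members both neighbours in that order lay on the member's own chromosome. Whether this probe set also reads a similar sequence elsewhere was not tested. The other Hadhb probe set, 10520467, lies between Garem2 and Selenoi on chromosome 5, and it measured 9.07, 9.36 and 9.28 with rapamycin and 9.08, 9.22 and 9.36 with PBS. Its difference was 0.02, and both probe sets put the 6 mice in the same order.

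Acaa2, the mitochondrial thiolase that releases acetyl-CoA, measured 8.54, 8.66 and 8.69 with rapamycin and 8.68, 8.61 and 8.69 with PBS, with a difference of -0.03 (SE 0.08). Its profile over the mice was nearest to that of Hadha among the members, at a root mean square distance of 0.04 log2 after centring each gene on its mean. Lipa, lysosomal acid lipase, stands outside beta-oxidation: it frees fatty acids from triglycerides and cholesteryl esters taken up into lysosomes. It measured 9.39, 9.84 and 10.11 with rapamycin and 9.81, 9.75 and 10.02 with PBS, a difference of -0.08 (SE 0.17, 95% interval -0.47 to 0.31). The rapamycin mice alone covered 0.72 log2 for Lipa, and 2.37% of all genes had a range among rapamycin mice at least as wide.

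Most members had a wider range among these 3 rapamycin mice than among these 3 PBS mice. The ranges of the 10 members come from the same 3 mice per group, so they are not independent, and a difference in spread between the treatments was not tested. The range over 3 mice was larger with rapamycin in 9 of 10 members, Cpt2 being the exception, against 55.5% of all genes. The median range of the members was 0.23 with rapamycin and 0.12 with PBS, and over all genes 0.21 with rapamycin and 0.19 with PBS. Rapamycin replicate 3 held the highest value of 6 members and lay at or above the 6-mouse mean in all 10, where 44.5% of all genes lay above their mean in that mouse. Rapamycin replicate 1 held the lowest value of 6 members and lay above the mean in 2 of 10, against 49.6% of all genes. The mean over the members was 9.02, 9.18 and 9.26 in the rapamycin mice and 9.11, 9.07 and 9.16 in the PBS mice, so that the PBS mice lay between the rapamycin extremes.

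**Figure D3:**
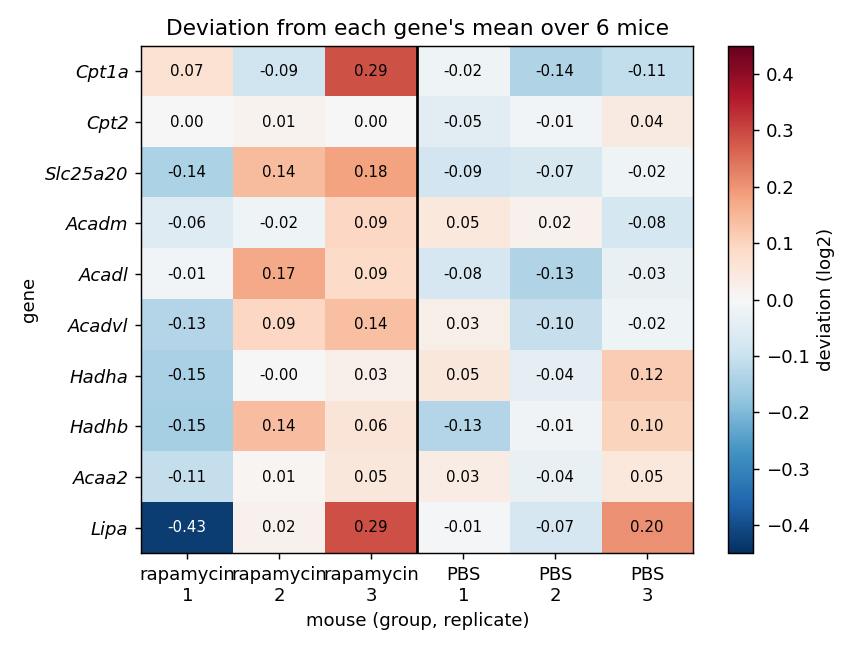
Deviation of each member (rows, pathway order) from its own mean over 6 mice (columns, rapamycin left of the line, PBS right; colour and printed value in log2). Rapamycin replicate 1 is below the mean for 8 genes and replicate 3 at or above it for all 10, with Lipa at -0.43 and 0.29.

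Without rapamycin replicate 1, 2 members had an unadjusted p under 0.05, Slc25a20 and Acadl, where 7.75% of all genes did, and the groups of 3 members did not overlap (Slc25a20, Acadl and Acadvl, all higher with rapamycin), where 24.1% of all genes separated. Without rapamycin replicate 2, 1 member (Cpt1a) had an unadjusted p under 0.05, against 3.34% of all genes. With array weights it was 1 member, Acadl, against 7.43% of all genes. No member passed at an adjusted p under 0.05 in any of these fits, in which the lowest adjusted p of a member was 0.590.

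The sorted cells carried strong T cell transcripts, and markers of other cells varied between mice. Of the T cell markers, Cd3e measured 12.84 ± 0.08 with rapamycin and 12.87 ± 0.05 with PBS (SD, n = 3 each), and the differences of Cd4 and Cd8a were 0.14 (SE 0.20) and 0.03 (SE 0.09). The T cell list had a difference below 0 in 8 of 12 genes, and its mean ranged from 11.15 to 11.34 in rapamycin mice and from 11.17 to 11.37 in PBS mice. Of these 12 genes 1, the surface receptor Cd5, named after its values were seen, was without overlap between the groups. It was also the 1 gene of the list at an unadjusted p under 0.05 (difference -0.19, SE 0.08, unadjusted p = 0.0401 in limma's test). Over all genes 9.42% were without overlap and 4.67% had an unadjusted p under 0.05. Neutrophil and granulocytic precursor markers had a difference above 0 in 16 of 17 genes, and their mean ranged from 8.53 to 9.44 in rapamycin mice and from 7.97 to 9.12 in PBS mice. Rapamycin replicate 1, the mouse lowest in the oxidation genes, was the highest in these markers at 9.44. With that marker mean as a covariate, Acadl was the 1 member at an unadjusted p under 0.05 (difference 0.20, unadjusted p = 0.0383, adjusted p = 0.618), where 7.79% of all genes passed.

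Monocyte and macrophage markers had a difference below 0 in 14 of 17 genes, and their mean ranged from 7.18 to 7.64 in rapamycin mice and from 7.40 to 8.05 in PBS mice. The largest difference among them was that of Spic, a transcription factor of red pulp macrophages, at -1.34 (SE 0.19, adjusted p = 0.408). B cell markers were below 0 in 7 of 11 (mean 5.46 to 5.58 with rapamycin, 5.54 to 5.74 with PBS), natural killer markers in 6 of 8 (7.77 to 7.93 with rapamycin, 7.64 to 8.20 with PBS) and dendritic cell markers in 6 of 10 (7.23 to 7.35 with rapamycin, 7.29 to 7.37 with PBS). Erythroid markers were above 0 in 7 of 9 (6.06 to 6.34 with rapamycin, 5.97 to 6.07 with PBS), and stromal, endothelial and adipocyte markers in 5 of 11 (5.76 to 5.80 with rapamycin, 5.75 to 5.87 with PBS). The largest differences in these lists and in the neutrophil list were those of Fcrl1 (B cell, -0.89), Itga2 (natural killer, -0.65), Itgax (dendritic, -0.38), Slc4a1 (erythroid, 0.45), Dcn (stromal, 0.35) and Camp (neutrophil, 0.66), and 0 of these genes passed at an adjusted p under 0.05. At an unadjusted p under 0.05 were 23.5% of the macrophage list, 25% of the natural killer, 18.2% of the B cell and 27.3% of the stromal list. It was 5.88% of the neutrophil list and 0% of the erythroid and dendritic lists, beside 4.67% of all genes. Over all genes 55.3% lay below 0 and 44.7% above. Macrophages and granulocytes also express lysosomal and oxidation genes. The part of these cells in the values of the members and of the wider pathway genes was not tested beyond the neutrophil covariate. In sorted bulk cells, fewer cells of a type and less RNA per cell cannot be told apart.

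The wider pathway was read from 8 lists of 108 genes, of which 101 were measured. At an adjusted p under 0.05 it was 0 of 101. At an unadjusted p under 0.05 it was 7 of 101, or 6.93%, beside 4.67% of all genes, with 3 higher and 4 lower in rapamycin mice, where 1.6% of all genes were higher and 3.07% lower by that rule. The groups did not overlap for 10 of 101, or 9.90%, beside 9.42% of all genes. Of these 2 were higher with rapamycin and 8 lower, where 3.14% of all genes were higher and 6.28% lower by that rule. Of the 101 genes 43 had a difference above 0 and 58 below, with a median of -0.02, and 55.3% of all genes lay below 0.

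Genes that bring fatty acids in and store them held the 2 largest positive differences of the wider lists. Cd36, a fatty acid and lipoprotein scavenger receptor, measured 4.94, 6.52 and 6.07 with rapamycin and 4.74, 4.82 and 4.78 with PBS. The groups did not overlap, replicate 1 of the rapamycin mice lying close to the PBS mice and the other two well above. The difference was 1.06 (SE 0.33, unadjusted p = 0.0116, adjusted p = 0.981 in limma's test). The values of Cd36 in the PBS mice and in rapamycin replicate 1 lay below the array medians of 6.03 to 6.17. Cd36 was the 1 gene of 15 in the uptake, binding and activation list at an unadjusted p under 0.05, where 4.67% of all genes passed. The fatty acid chaperone Fabp5 had a difference of 0.13 (SE 0.10), its relative Fabp4 -0.15 (SE 0.10) and the transporter Slc27a4 -0.13 (SE 0.11).

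Plin2, which coats lipid droplets, measured 9.43, 9.80 and 10.32 with rapamycin and 9.46, 9.06 and 9.40 with PBS. Rapamycin replicate 1 fell within the PBS range and the other two above it. The difference was 0.55 (SE 0.21, unadjusted p = 0.0292, adjusted p = 0.99985). Among the 12 lipase and droplet genes 9 had a difference above 0, with a median of 0.09. Dgat1, which makes triglyceride, had 0.22 (SE 0.12), and the droplet coat gene Plin3 and the lipase Pnpla2 had -0.08 (SE 0.10) and -0.04 (SE 0.09).

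Peroxisomal oxidation genes were mixed, with 4 of 14 above 0. The peroxisomal acyl-CoA transporter Abcd3 measured 7.997, 7.983 and 8.041 with rapamycin and 7.642, 7.915 and 7.789 with PBS, without overlap (difference 0.23, SE 0.09, unadjusted p = 0.0332). Its relative Abcd2 had 0.52 (SE 0.31), and the peroxisomal genes Ehhadh and Scp2 had -0.18 (SE 0.10) and -0.13 (SE 0.09). Abcd3 was the 1 gene of the 14 higher with rapamycin without overlap, where 3.14% of all genes were. The 2 lower without overlap were Scp2 and the racemase Amacr, where 6.28% of all genes were lower by that rule. Amacr (-0.08, SE 0.07) was named after its values were seen. Its highest rapamycin mouse, at 5.895, lay just below its lowest PBS mouse, at 5.898. With each array centred on its median the groups of Scp2 and those of Amacr overlapped.

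Other mitochondrial beta-oxidation genes had a difference below 0 in 14 of 20, with a median of -0.04. At an unadjusted p under 0.05 were 2 of the 20, against 4.67% of all genes. Both were lower, where 3.07% of all genes were lower by that rule, and both lie at the edge of the pathway. They were Hibch, an enzyme of valine breakdown, at -0.21 (SE 0.08), and Acad10, an acyl-CoA dehydrogenase relative, at -0.25 (SE 0.09). The auxiliary enzymes for unsaturated fatty acids, Eci2 and Decr1, had 0.18 (SE 0.16) and 0.09 (SE 0.08). The electron transfer list, which also holds a flavin carrier and a methyltransferase, had 5 measured genes with differences from -0.14 to 0.06. Etfb and Etfdh, which hand electrons to the respiratory chain, had -0.03 (SE 0.07) and 0.04 (SE 0.07), the flavin carrier Slc25a32 0.06 (SE 0.08) and Etfbkmt, a methyltransferase acting on Etfb, -0.14 (SE 0.14).

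Carnitine supply and the other carnitine acyltransferases held 5 of 7 below 0, where 55.3% of all genes lay below 0. At an unadjusted p under 0.05 it was 0 of 7, where 4.67% of all genes passed. Cpt1c, the brain-type relative of Cpt1a, had -0.15 (SE 0.08) and the carrier Slc25a29 -0.17 (SE 0.08), both without overlap between the groups. They were 2 of 7 genes, both lower, where 6.28% of all genes were lower by that rule and 9.42% separated in either direction. With each array centred on its median the groups of Slc25a29 overlapped. Crat, carnitine acetyltransferase, had 0.07 (SE 0.11) and Aldh9a1, of carnitine synthesis, 0.01 (SE 0.13).

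Malonyl-CoA blocks CPT1, and the list of genes that set its level, made of the acetyl-CoA carboxylases, malonyl-CoA decarboxylase, AMP-activated kinase subunits and the kinase Stk11, had 7 of 10 below 0 and a median of -0.07. Its mean was 7.90, 7.85 and 7.84 in the rapamycin mice and 7.95, 7.94 and 7.94 in the PBS mice, without overlap. Of its genes 0 of 10 had an unadjusted p under 0.05, where 4.67% of all genes did. With each array centred on its median these means overlapped between the groups. The kinase subunits Prkag1 and Prkab1 each had -0.16 (SE 0.08 and 0.09), Mlycd, the decarboxylase, had 0.03 (SE 0.08) and Prkaa2, a catalytic subunit, 0.03 (SE 0.08). The list holds both genes that make malonyl-CoA and genes that lower it, so its mean has no single direction for the pathway.

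The list of transcription factors and coactivators of the pathway also holds the deacetylases Sirt1 and Sirt3 and the kinase Pdk4. It had 10 of 18 below 0 and a median of -0.01. At an unadjusted p under 0.05 were 2 of the 18, against 4.67% of all genes. Both were lower, where 3.07% of all genes were lower by that rule. Foxo1, a forkhead factor of quiescent T cells, measured 9.02, 8.86 and 8.75 with rapamycin and 9.20, 9.15 and 9.10 with PBS, without overlap (difference -0.27, SE 0.09, unadjusted p = 0.0152, adjusted p = 0.982). Rxra, the partner of the PPAR receptors, had -0.28 (SE 0.12). Esrrg, an orphan nuclear receptor, had 0.11 (SE 0.08), and Pdk4, a kinase that restrains pyruvate use, 0.09 (SE 0.10).

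**Figure D4:**
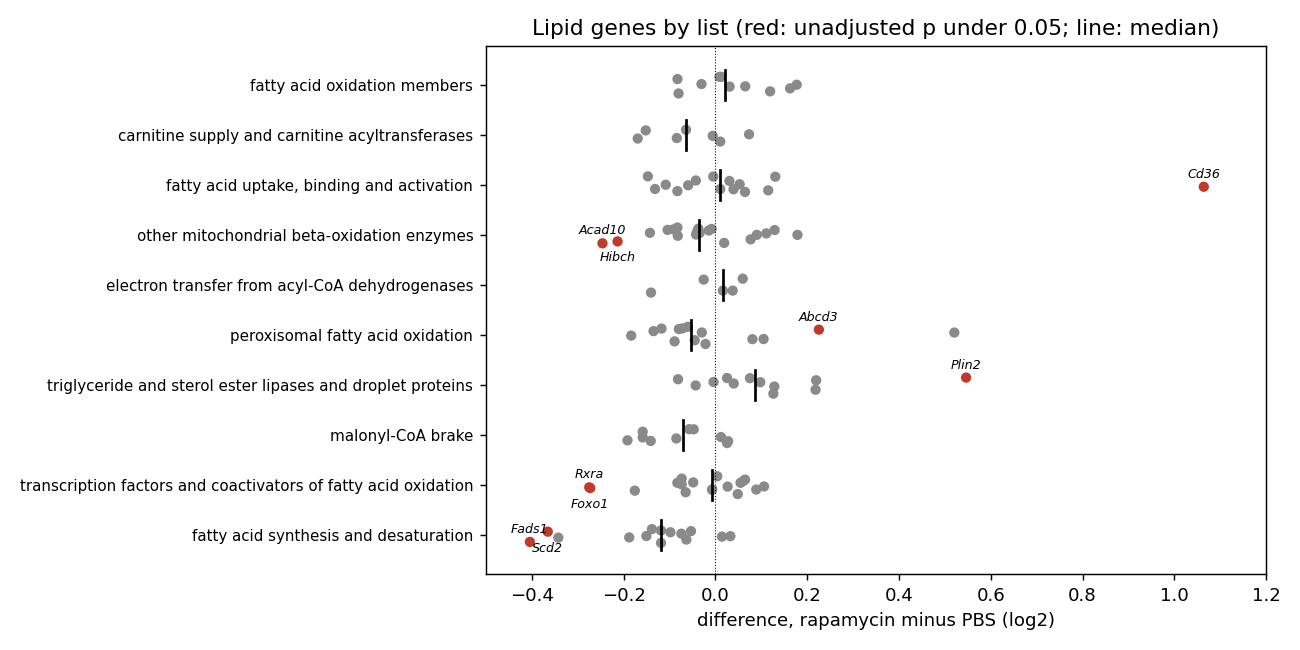
Difference of each measured gene (x axis, log2, rapamycin minus PBS) by list (rows); points are genes, red where the unadjusted p is under 0.05, and vertical lines are list medians. The oxidation members stay within -0.08 and 0.18, and Cd36 at 1.06 and Plin2 at 0.55 stand farthest to the right.

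The opposite pathway, fatty acid synthesis and desaturation, lay lower with rapamycin in 12 of 14 genes, where 55.3% of all genes lay below 0. Its median was -0.12, and 0 genes passed at an adjusted p under 0.05. Its mean was 8.014, 8.004 and 8.025 in the rapamycin mice and 8.153, 8.171 and 8.162 in the PBS mice, without overlap, also with each array centred on its median. The desaturases Scd2 and Fads1 had -0.37 (SE 0.09) and -0.40 (SE 0.10), each at an adjusted p of 0.814, while Slc25a1, the citrate carrier, had 0.03 (SE 0.12) and Elovl1, an elongase, 0.01 (SE 0.12). The means of the 10 oxidation members overlapped between the groups where those of the synthesis list did not, and the difference between the lists was not tested. Of all the lists read here, cell type markers included, only the means of the synthesis and malonyl-CoA lists did not overlap between the groups. How often the means of gene lists outside these separate the groups was not measured. The lists were chosen with earlier results of these data known.

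**Figure D5:**
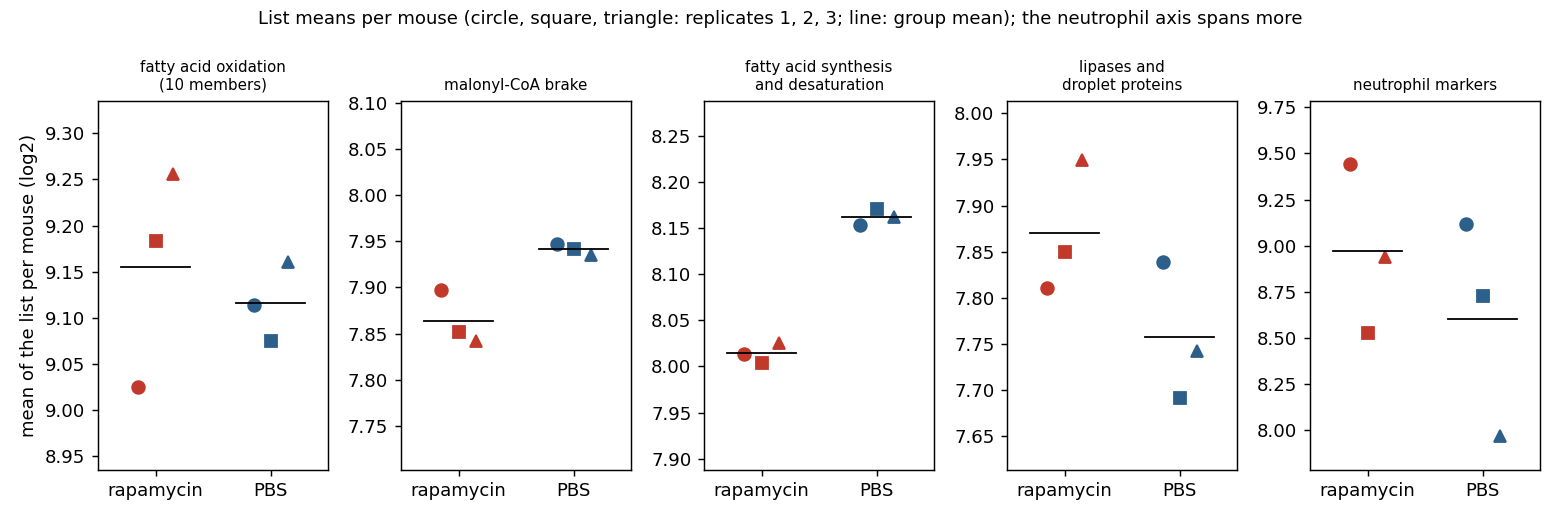
Mean of each list per mouse (y axis, log2; the first 4 panels span the same range of values and the neutrophil panel a wider one), rapamycin left and PBS right; markers are mice and lines group means. The malonyl-CoA and synthesis panels show no overlap, which the malonyl-CoA means lose with arrays centred on their median, the oxidation members overlap, and rapamycin replicate 1 is lowest in the oxidation panel and highest in the neutrophil panel.

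Profiles centred on their mean over the 6 arrays were compared with that of Cpt1a for 15829 genes with at least 50% of its SD. The 5 nearest were Cntn1, Il11, Emp2, Lrrn3 and Prl3c1, at root mean square distances of 0.02 to 0.05 log2. Their values lay between 3.341 (Prl3c1) and 5.685 (Emp2), below the array medians of 6.03 to 6.17, whereas Cpt1a lay between 9.54 and 9.96. Near profiles picked from so many genes over 6 arrays are no measure of shared regulation, which was not tested.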

How the data were processed

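The deposited values are log2 expression of 35556 probe sets on 6 arrays; per the submitters' processing notes, the authors made them in Affymetrix Expression Console with RMA, which equalises the arrays' intensity distributions, removes shifts shared by most genes and compresses low values. The software versions and the genome build were not given in the sources used here. Array medians lay between 6.03 and 6.17, and detection calls were not used. Of the named wider pathway genes, Cd36, Fabp4, Acad10, Cpt1c, Amacr, Prkaa2 and Pdk4 had means below these medians in both groups.

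Groups came from the sample titles. The platform table gave 1 gene for 21789 probe sets and more than 1 for 1621, and 12146 had no entry. Each gene was read from its probe set of highest mean. Differences were tested with limma 3.58.1 in R 4.3.3 (lmFit and eBayes with group alone in the model) over 19938 genes, two-sided, with Benjamini-Hochberg adjustment, and the test was checked on simulated data.

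The members and gene lists were chosen with earlier results of these data known. From each wider list the text names genes past an adjusted p of 0.05 or, with none, up to 2 a direction ranked by p, and from each marker list other than T cells the gene of largest difference. Alternatives were each replicate left out, a replicate block, probe set means, a filter on low values, a trended and robust prior, array weights, median centring, a neutrophil covariate and, added after seeing the data, the other Hadhb probe set. Figures were drawn with matplotlib 3.10.9.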

Additional observations from a re-analysis of the deposited data

How the results depend on the processing

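Under 14 alternatives 0 members passed at an adjusted p under 0.05 in any of them. Members at an unadjusted p under 0.05 numbered 0, and from 0 to 2 with 1 replicate left out, where 3.34% to 7.75% of all genes passed. It was 1 with array weights and 1 with the neutrophil covariate, Acadl in both of these, where 7.43% and 7.79% of all genes passed. Members whose groups did not overlap numbered 1, from 1 to 3 with 1 replicate left out, where 16.3% to 24.1% of all genes separated, and 0 with median centring, where 8.26% did. Wider pathway genes at an unadjusted p under 0.05 numbered 7, where 4.67% of all genes passed. With 1 replicate left out they numbered from 5 to 10, where 3.34% to 7.75% of all genes passed. Without the lowest 50% of genes, a filter that leaves fewer genes to test, they numbered 4, where 5% passed.

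The differences of Cpt1a, Slc25a20, Acadl, Acadvl and Hadha kept their sign in all 14; with 1 replicate left out Acadvl ran from 0.0131 to 0.147 and Hadha from -0.125 to -0.0299. The others then ran from -0.25 to 0.11 for Lipa, from -0.0314 to 0.114 for Hadhb, from -0.0351 to 0.0405 for Acadm, from -0.0629 to 0.0149 for Acaa2 and from -0.0081 to 0.0352 for Cpt2. Lipa was also 0.0401 with array weights and 0.0404 with the neutrophil covariate, which took Acadm to -0.00907; the cause was not tested.

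The sample titles number the mice as biological replicates and state no pairing. Deviations from the group means over all genes correlated at 0.09, -0.19 and 0.19 for mice of the same number. For mice of different numbers they ran from -0.44 to 0.37. With 3 mice in each group these correlations cannot decide whether the numbers pair the mice. With the numbers as a replicate block, 0 members and 6 wider pathway genes had an unadjusted p under 0.05, where 4.97% of all genes did. The number of arrays limits the precision.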
